A study of Homo sapiens with 12 samples.

Results

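Receptors for the growth factors that drive myeloid and erythroid blood cell formation were followed through a differentiation of H9, a long-established line of human embryonic stem cells. The 8 genes were chosen by name as a functional group (CSF1R, CSF2RA, CSF2RB, CSF3R, IL3RA, IL5RA, IL6R and EPOR), and all 8 were among the 36601 gene IDs of the deposited count table. Bulk RNA was sequenced from 12 libraries, 3 at each of day 10, day 15, day 20 and day 25. The labels call day 10 hematopoietic progenitor cells, days 15 and 20 T progenitor cells, and day 25 mature γδT cells, all wild-type H9 cells under cytokine induction and all from Batch1. Before differentiation the stem cells were kept on mouse embryonic fibroblast feeders, and the labels name no sort or gate. From day 6 the medium held VEGF at 50, bFGF at 20, Flt3L at 10, IL-7 at 10 and SCF at 20 ng/mL with SB431542. From day 10 it held SCF at 10, IL-7 at 5, Flt3L at 5 and the Notch ligand DLL4 at 10 ng/mL with 20% FBS. The labels name no ligand of any of the 8 receptors in either medium.

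CSF1R is a receptor tyrosine kinase that binds CSF1 and IL-34 and is needed by monocytes and macrophages. The other receptors belong to the class I cytokine receptor family, which has no kinase of its own and signals through bound JAK kinases and STAT factors. CSF3R, the G-CSF receptor of neutrophils, and EPOR, the erythropoietin receptor of red cell precursors, each work as homodimers. CSF2RA, IL3RA and IL5RA are the ligand-binding α chains for GM-CSF, IL-3 and IL-5, and all share the signalling chain CSF2RB. IL6R binds IL-6 and signals through IL6ST (gp130), which also serves other cytokines, while an IL6R or CSF1R ectodomain can be released from the cell surface by proteases.

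Promoter sequence for 7 of the 8 genes, all but CSF2RB, was found in RefSeq on GRCh38.p14, in 9 windows of 250 bases before to 50 bases after a start site. The 5 windows with a match to either of the motifs searched are printed 5′ to 3′ on the gene's own strand. Capitals mark GAGGAA, a core bound by ETS factors such as PU.1, or the GATA box AGATAA, searched on both strands, so that TTCCTC and TTATCT are the same motifs read on the other strand. In these windows no GAGGAA match overlaps an AGATAA match. GAGGAA was present in 27.9% and AGATAA in 10.3% of all 34961 promoter windows of this length.
CSF1R, chr5:150086505-150086804, minus strand: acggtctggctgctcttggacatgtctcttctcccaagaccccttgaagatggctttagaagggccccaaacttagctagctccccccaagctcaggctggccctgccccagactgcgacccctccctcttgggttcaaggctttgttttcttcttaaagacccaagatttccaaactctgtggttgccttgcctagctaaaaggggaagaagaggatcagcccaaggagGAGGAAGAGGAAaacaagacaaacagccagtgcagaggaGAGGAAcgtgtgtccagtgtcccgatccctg
CSF2RA, chrX:1268564-1268863, plus strand: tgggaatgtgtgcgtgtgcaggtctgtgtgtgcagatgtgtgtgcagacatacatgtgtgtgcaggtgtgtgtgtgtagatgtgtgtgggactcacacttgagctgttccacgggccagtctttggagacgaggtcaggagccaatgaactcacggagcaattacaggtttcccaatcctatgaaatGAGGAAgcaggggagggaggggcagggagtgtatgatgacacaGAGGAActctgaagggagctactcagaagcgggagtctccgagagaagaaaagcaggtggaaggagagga
CSF3R, chr1:36482864-36483163, minus strand: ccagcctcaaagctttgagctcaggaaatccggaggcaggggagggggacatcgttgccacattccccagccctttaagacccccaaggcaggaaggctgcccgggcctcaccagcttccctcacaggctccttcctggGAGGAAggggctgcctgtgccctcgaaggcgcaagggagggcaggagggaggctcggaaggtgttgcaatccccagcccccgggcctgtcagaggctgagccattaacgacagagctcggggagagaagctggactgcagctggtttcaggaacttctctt
IL6R, chr1:154405093-154405392, plus strand: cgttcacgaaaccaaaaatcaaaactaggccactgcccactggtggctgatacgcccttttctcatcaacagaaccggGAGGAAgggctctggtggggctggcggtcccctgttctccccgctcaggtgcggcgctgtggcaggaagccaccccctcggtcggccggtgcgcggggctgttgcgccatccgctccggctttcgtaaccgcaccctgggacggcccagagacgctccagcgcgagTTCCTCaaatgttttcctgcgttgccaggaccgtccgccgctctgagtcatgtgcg
EPOR, chr19:11384265-11384564, minus strand: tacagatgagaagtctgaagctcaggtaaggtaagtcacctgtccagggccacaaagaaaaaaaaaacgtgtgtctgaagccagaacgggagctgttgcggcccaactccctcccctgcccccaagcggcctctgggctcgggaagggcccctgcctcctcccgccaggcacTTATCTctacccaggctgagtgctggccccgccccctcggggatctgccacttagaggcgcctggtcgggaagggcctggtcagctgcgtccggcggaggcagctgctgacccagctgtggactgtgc

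The CSF1R window had 3 GAGGAA matches, beginning at -20, -14 and 20 relative to the start. The CSF2RA window had 2 matches, at -63 and -20, and the CSF3R window had 1, at -111. The IL6R window had 1 at -172 and 1 on the other strand at -6. The EPOR window had no GAGGAA and 1 AGATAA on the other strand at -78. CSF1R and CSF3R each have a further upstream start with neither motif, and the IL3RA and IL5RA windows also held neither. The counts are per gene, so they do not separate the start sites, and a match describes letters and not a bound site.

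The count table gave 27026196 to 39811230 counts per library. Levels are CPM, counts divided by the TMM-scaled library size of edgeR, and comparisons between genes use CPM per kb of merged exons. Merged exons join all annotated exons of a gene and can be longer than the transcript expressed. Orders between genes per kb therefore depend on this length. A floor of 3 counts corresponded to 0.0723 to 0.145 CPM in a library and covers counting error only. Whether the replicates came from separate cultures is not stated in the labels, and p-values therefore reflect the library-to-library spread alone, which can be technical. In bulk RNA, more cells of a type and more RNA per cell cannot be told apart, and this touches every change below. The 10 T-cell markers summed to 0.762 to 1.68 CPM per library at day 10, 8.08 to 9.66 at day 15, 3.92 to 4.48 at day 20 and 2.33 to 3.21 at day 25. TRDC, the constant region of the T-cell receptor δ chain, averaged 0.109 CPM at day 10, 5.81 at day 15, 1.46 at day 20 and 0.379 at day 25, the largest part of the sum at days 15 and 20. Of the 6 T-cell markers tested, 4 (BCL11B, CD5, TRDC and CD3E) were higher and 1 (CD2) was lower at day 25 than at day 10. Over all genes tested 38.6% were higher and 36.0% lower. The 4 higher markers had 98, 88, 43 and 17 counts in the day 25 libraries together, and 18, 24, 11 and 0 in those of day 10. They passed the filter on low counts through later days. CD3D and CD3G had 0 counts in the day 25 libraries, which allows up to 0.0287 CPM over the 3 libraries. Over the same days 12 monocyte and macrophage markers summed to 81.0 to 87.3 CPM at day 10, 574 to 624 at day 15, 2239 to 2293 at day 20 and 4315 to 4452 at day 25, with MSR1 at 0 on day 10. The T-cell sum was thus below the monocyte and macrophage sum in every library, and the days are named by number here. The 8 endothelial markers summed to 1359 to 1407 CPM at day 10, 3474 to 3550 at day 15, 405 to 409 at day 20 and 324 to 338 at day 25, and the 6 B-cell markers did not exceed 7.69 CPM in any library.

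All 8 receptor mRNAs differed among the 4 days in edgeR's joint quasi-likelihood test, as did 90.5% of the 20183 genes tested, with adjusted p between 1.5e-53 for CSF1R and 2.7e-15 for IL3RA. CSF1R, CSF3R, IL6R and CSF2RA, which serve monocytes and neutrophils, were at their lowest at day 10 and at their highest at day 20 or 25. CSF2RB and IL5RA were highest at day 15, and IL3RA at days 15 and 20. EPOR was highest at day 15 and fell to its lowest level at day 25.

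**Figure D1:**
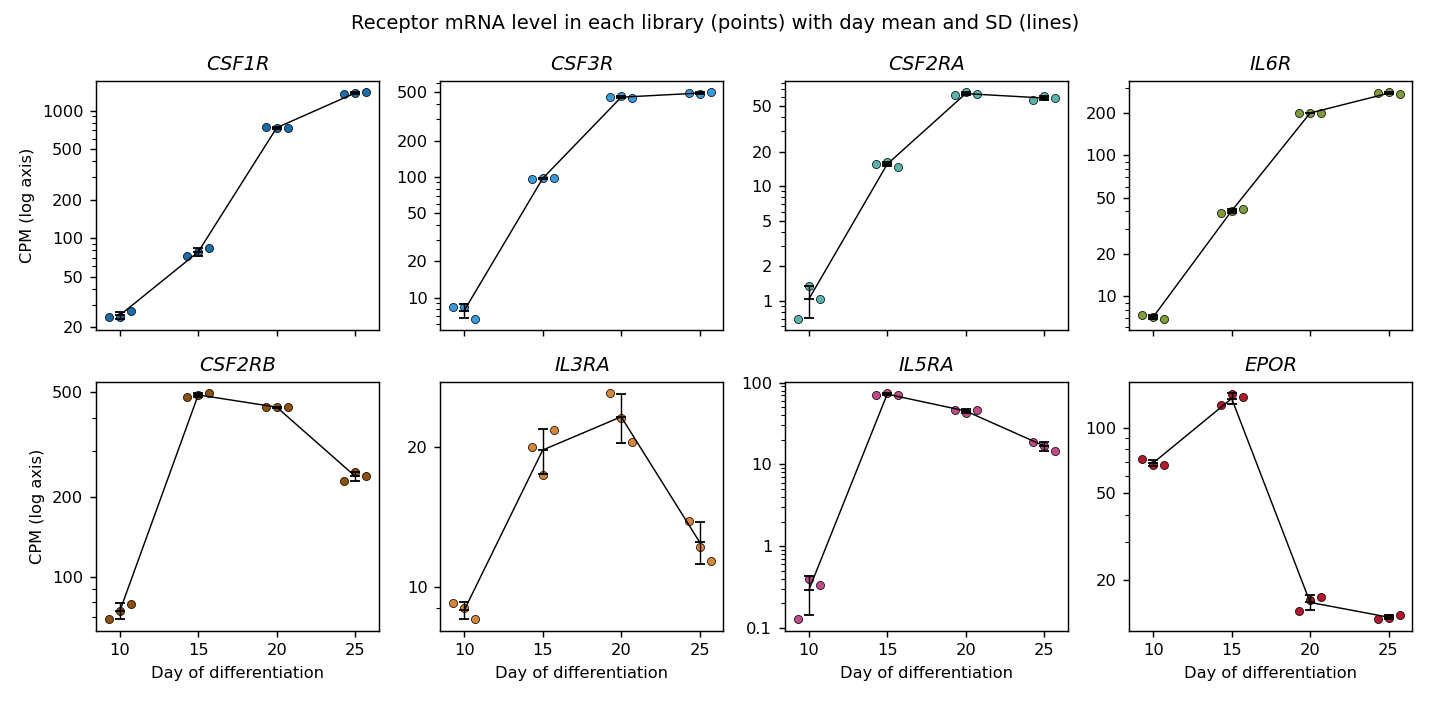
Level of each receptor mRNA in CPM (log axis, a separate scale in each panel) against day of differentiation. Points are the 3 libraries of a day, set side by side, and lines join the day means with SD bars. CSF1R ends at 1374 CPM and CSF3R at 494 CPM on day 25, while EPOR ends at 13.6 CPM.

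Between day 15 and day 10, 8 of 8 genes were called higher at day 15 at an adjusted p under 0.05, beside a background of 42.4% of all tested genes called higher and 30.8% called lower. Their median log2 fold change was 2.61, against 0.20 over all genes. All 8 passed the filter on low counts, but IL5RA would not have passed it from its day 10 libraries alone. Between day 20 and day 15, 5 genes were higher and 3 lower (EPOR, IL5RA and CSF2RB, the last higher with library-size scaling), beside 40.6% of all genes higher and 36.0% lower, with a median log2 fold change of 1.14 against 0.10 over all genes. Between day 25 and day 20, 3 genes were higher (CSF1R, IL6R and CSF3R, the last not with library-size scaling), 4 were lower (CSF2RB, IL3RA, IL5RA and EPOR) and CSF2RA was not called, beside 24.5% of all genes higher and 25.1% lower. Between day 25 and day 10, 7 genes were higher and 1, EPOR, was lower, beside 38.6% higher and 36.0% lower over all genes. The median log2 fold change of the 8 genes between those days was 5.53, against 0.02 over all genes. The libraries of the days did not overlap for 8 of 8 receptors between days 15 and 10 (74.3% of all tested genes), for 7 of 8 between days 20 and 15 (78.3%), all but IL3RA, and for 8 of 8 between days 25 and 20 (57.0%), 25 and 10 (77.3%), 20 and 10 (73.9%), and 25 and 15 (79.1%). With library-size scaling in place of TMM, 5917 genes of the table were called higher and 9183 lower between days 15 and 10, against 8562 higher and 6214 lower with TMM. Between days 20 and 15 the split was 11719 higher and 4530 lower with library-size scaling, against 8197 and 7271 with TMM, and between days 25 and 20 it was 3414 and 7445, against 4952 and 5071.

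**Figure D2:**
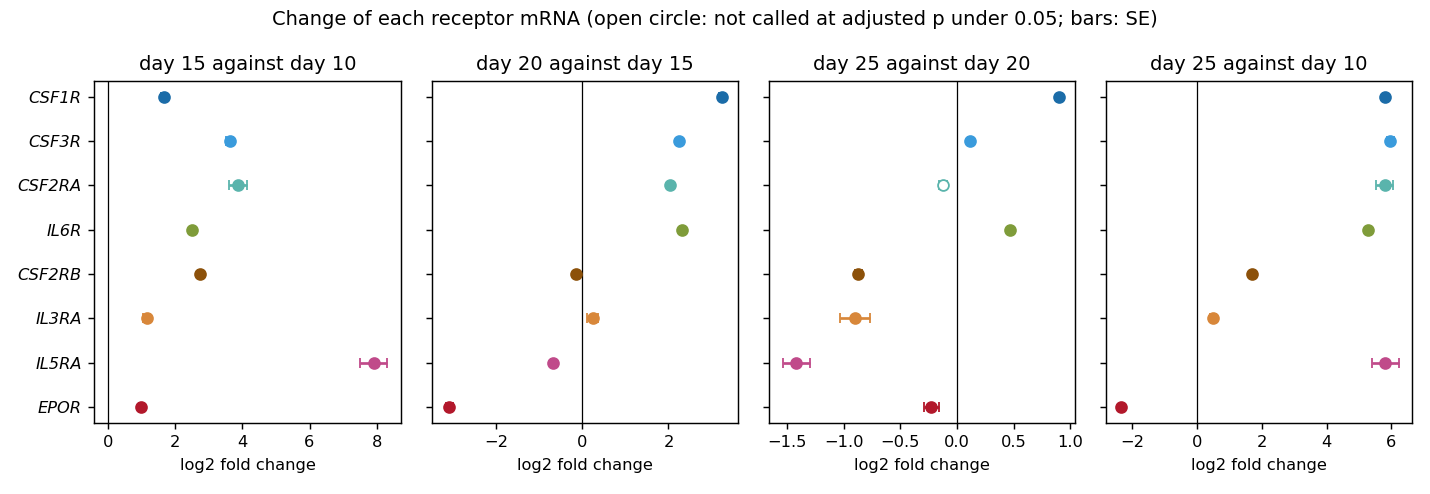
Log2 fold change of each receptor mRNA, later day over earlier day, in the 3 steps of the course and over the whole course, with SE bars. The horizontal scale differs between panels, filled circles were called by edgeR at an adjusted p under 0.05, and the open circle is CSF2RA between days 25 and 20. EPOR lies at -3.10 between days 20 and 15, and IL5RA at 7.91 between days 15 and 10.

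CSF1R (ENSG00000182578; GRCh38 chr5:150053291-150113372, minus strand) became the most abundant of the receptor mRNAs per kb at days 20 and 25. Its libraries had 23.9, 24.0 and 26.6 on day 10, 72.4, 78.4 and 83.3 on day 15, 748, 727 and 728 on day 20, and 1360.1, 1371 and 1391 on day 25, all in CPM. No library of any day overlapped those of another, and each day was higher than the day before it. The mean at day 25 was 1374 ± 15.5 CPM against 24.8 ± 1.53 CPM at day 10 (SD, n = 3 each), a 55.4-fold rise (log2 5.79, SE 0.05, edgeR adjusted p = 2.3e-51). The last step was still a rise, 1.87-fold between days 25 and 20 (edgeR adjusted p = 5.2e-25). Per kb, CSF1R ranked 6895 among 19814 genes at day 10, 3360 at day 15, 138 at day 20 and 69 at day 25. Its 2 ligands differed from each other. CSF1, a cytokine made by many stromal and myeloid cells, averaged 8.17 ± 0.313 CPM at day 10, 358 ± 2.30 at day 15, 137 ± 3.33 at day 20 and 134 ± 3.43 at day 25 (SD, n = 3 each). IL34 did not exceed a day mean of 0.571 CPM. CSF1 mRNA was thus highest at day 15, and the largest step of CSF1R came between days 20 and 15 (log2 3.23). The monocyte and macrophage marker sums given above were higher at each later day. All 12 markers were higher at day 25 than at day 10, beside 38.6% of all genes higher and 36.0% lower. At day 10 MSR1 had 0 counts over the 3 libraries, CD14, MARCO and C1QB had 2 each, C1QA 12 and FOLR2 20. These genes passed the filter on low counts through later days, so the size of their rises is uncertain. The part of the 12 markers in the CSF1R course was not tested.

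CSF3R (ENSG00000119535; chr1:36466043-36483278, minus strand), the receptor through which G-CSF drives neutrophil production, rose earlier and then levelled off. Its libraries had 8.38, 8.41 and 6.68 on day 10, 95.5, 98.0 and 97.8 on day 15, 459, 463 and 448 on day 20, and 495, 487 and 501 on day 25, all in CPM. The libraries of each day lay apart from those of every other day, with a narrow gap between days 20 and 25. Day 15 was 12.3-fold over day 10 (log2 3.62, SE 0.11, edgeR adjusted p = 3.3e-41), and day 20 was 4.70-fold over day 15 (edgeR adjusted p = 1.1e-38). Between days 25 and 20 the log2 difference was 0.11 (SE 0.02, edgeR adjusted p = 0.0076), and it turned to -0.05 (adjusted p = 0.23) when libraries were scaled by library size alone. With that scaling the median of all genes was -0.19, against -0.03 with TMM, and relative to the median CSF3R stood at 0.14 under both scalings. A change of scaling moves all genes by nearly the same amount. The equality therefore follows from arithmetic and does not bear on the call. The 12 neutrophil markers summed to 457 to 482 CPM at day 10, 5423 to 5754 at day 15, 17473 to 17772 at day 20 and 7544 to 7714 at day 25, with CAMP, CEACAM8 and MMP8 at 0 on day 10. Between days 25 and 20 the markers were divided, with 7 of 12 higher and 5 lower and a median log2 fold change of 0.56. Over all genes 24.5% were higher and 25.1% lower. MPO, PRTN3, AZU1, ELANE and CTSG, all of the primary granules, were lower, and MPO alone had 4332 CPM at day 25 against 11859 CPM at day 20. LTF, a secondary granule gene among the 7 higher ones, had 397 CPM at day 25 against 133 CPM at day 20. The part of these markers in the CSF3R course was not tested.

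The ratio of CSF3R to CSF1R within a library does not depend on how libraries are scaled. On the log2 scale, per kb and with 1 count added, it averaged -2.38 ± 0.28 at day 10, -0.39 ± 0.08 at day 15, -1.40 ± 0.03 at day 20 and -2.19 ± 0.02 at day 25 (SD, n = 3 each). CSF1R therefore exceeded CSF3R per kb on every day, and by least at day 15. The order at day 15 rests on the merged exon lengths, 8.43 kb for CSF3R and 5.15 kb for CSF1R. Before division by length, CSF3R was above CSF1R at day 15, with 97.1 CPM against 78.0 CPM. The day means of the log2 ratio differed in an exact permutation test (two-sided by construction, p = 6.5e-05, the smallest it can give). The test compared the F statistic with every way of dividing the 12 libraries into 4 days. Its p was the same after adjustment over 3 ratios tested.

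IL6R (ENSG00000160712; chr1:154405193-154469450, plus strand), the ligand-binding chain for IL-6, had 7.34, 7.10 and 6.92 on day 10, 39.2, 40.0 and 41.8 on day 15, 198, 200.1 and 201 on day 20, and 275, 279.5 and 272 on day 25, all in CPM. The libraries of each day lay above those of the day before, with no overlap. The monocyte and macrophage sums given above were also higher at each later day. The 7 hepatic markers summed to 21.3 to 22.4 CPM at day 10, 104.9 to 107.7 at day 15, 871 to 895 at day 20 and 267 to 271 at day 25, and all 7 were higher at day 25 than at day 10. The 8 stromal markers summed to 1137 to 1164, 1536 to 1613, 6908 to 7022 and 4623 to 4701 CPM on the same days, and all 8 were higher at day 25 than at day 10. Over all genes 38.6% were higher and 36.0% lower between days 25 and 10. The part of these 3 lists in the IL6R course was not tested. Day 25 was 38.7-fold over day 10 (log2 5.27, SE 0.03, edgeR adjusted p = 8e-48) and 1.38-fold over day 20 (adjusted p = 4.8e-14). Its signalling partner IL6ST took another course, with 28.8 ± 0.696 CPM per kb at day 10, 87.7 ± 3.37 at day 15, 20.3 ± 0.706 at day 20 and 19.3 ± 0.362 at day 25. The IL6ST level was 26.1 times that of IL6R per kb at day 10, 14.1 times at day 15, 0.657 times at day 20 and 0.453 times at day 25. Per kb, IL6ST mRNA thus exceeded IL6R mRNA at days 10 and 15, and IL6R exceeded IL6ST at days 20 and 25. IL6 mRNA averaged 0.0450 CPM at day 10, 1.46 at day 15, 2.65 at day 20 and 0.152 at day 25. An antisense gene, IL6R-AS1, overlaps IL6R by 1372 bases, and whether counting used strand is not given. It held 168 counts in all libraries together.

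CSF2RB (ENSG00000100368; chr22:36913628-36940449, plus strand), the chain shared by the receptors for GM-CSF, IL-3 and IL-5, had 68.8, 73.9 and 79.0 on day 10, 481, 488 and 497 on day 15, 439, 438 and 441 on day 20, and 230.3, 249 and 241 on day 25, all in CPM. Day 15 was the highest, and no libraries of different days overlapped. It was 6.61-fold higher at day 15 than at day 10 (log2 2.73, SE 0.06, edgeR adjusted p = 3.6e-41) and 1.83-fold lower at day 25 than at day 20 (adjusted p = 1.9e-23). Between days 20 and 15 it was lower by a log2 change of -0.15 (SE 0.01, adjusted p = 0.00025), which turned to 0.47 (adjusted p = 2.1e-15) with library-size scaling and to 0.08 (adjusted p = 0.056) with no filter on low counts. The median of all genes was 0.73 with library-size scaling and 0.25 with no filter, against 0.10 in the TMM fit. Relative to that median CSF2RB stood at -0.26 under TMM, -0.26 under library size and -0.17 with no filter. The equal values under TMM and library size follow from arithmetic and do not bear on the call. At day 15 CSF2RB held 48.5% of the summed level of the 8 receptors per kb, the largest share that day.

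The α chains that pair with CSF2RB changed places over the course. Per kb, IL3RA made up 94.3% of the α-chain sum at day 10, 43.4% at day 15, 36.5% at day 20 and 29.0% at day 25. IL5RA made up 0.793%, 41.3%, 18.4% and 10.1% on the same days. CSF2RA made up 4.88%, 15.3%, 45.1% and 60.9%. Per kb, IL3RA thus led at day 10, IL3RA and IL5RA held nearly equal shares at day 15, and CSF2RA led at days 20 and 25. The near equality rests on the merged exon lengths, 6.6 kb for IL5RA and 1.71 kb for IL3RA. Before division by length, IL5RA was above IL3RA at day 15 (72.4 against 19.7 CPM), day 20 (45.1 against 23.3 CPM) and day 25 (16.9 against 12.5 CPM). The order of IL3RA and IL5RA at days 20 and 25 thus also rests on these lengths. The 3 α chains together came to 0.375 ± 0.0364 of the CSF2RB level per kb at day 10, 0.272 ± 0.00710 at day 15, 0.423 ± 0.0173 at day 20 and 0.525 ± 0.0296 at day 25 (SD, n = 3 each). CSF2RB mRNA exceeded their sum in all 12 libraries.

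CSF2RA (ENSG00000198223; chrX:1268800-1310381, plus strand), the GM-CSF-binding chain, had 0.699, 1.36 and 1.05 on day 10, 15.7, 16.1 and 14.8 on day 15, 62.6, 65.8 and 63.9 on day 20, and 56.5, 60.6 and 59.1 on day 25, all in CPM. The day 10 libraries were far below all others, and the day 25 libraries lay just below those of day 20 without overlap. Day 15 was 14.6-fold over day 10 (log2 3.87, SE 0.26, edgeR adjusted p = 3.4e-28), and day 20 was 4.13-fold over day 15 (adjusted p = 3.8e-26). Between days 25 and 20 the log2 difference of -0.13 was not called (SE 0.04, adjusted p = 0.12). It was called with library-size scaling (-0.29, adjusted p = 0.00027), with limma-voom (-0.12, adjusted p = 0.033) and in a fit to those 6 libraries alone (-0.13, adjusted p = 0.022). The log2 ratio of CSF2RA to CSF2RB per kb averaged -5.78 ± 0.41 at day 10, -4.58 ± 0.08 at day 15, -2.39 ± 0.04 at day 20 and -1.65 ± 0.01 at day 25. It was higher at each later day in every library, and the exact permutation p was 6.5e-05, the smallest possible.

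IL3RA (ENSG00000185291; chrX:1336616-1382689, plus strand), the IL-3-binding chain also known as CD123, varied least, its highest day mean being 2.61 times its lowest. Its libraries had 9.21, 9.01 and 8.51 on day 10, 20.0, 17.4 and 21.8 on day 15, 26.2, 23.1 and 20.5 on day 20, and 13.9, 12.2 and 11.4 on day 25, all in CPM. Days 20 and 15 overlapped, and the other days did not. IL3RA was 2.22-fold higher at day 15 than at day 10 (log2 1.15, SE 0.10, edgeR adjusted p = 2.8e-12) and 1.86-fold lower at day 25 than at day 20 (adjusted p = 1.1e-09). The log2 difference of 0.24 between days 20 and 15 (SE 0.14) passed by little, with an adjusted p of 0.041. Without day 15 replicate 1 it was 0.24 (adjusted p = 0.064), without day 15 replicate 2 0.16 (adjusted p = 0.21), without day 20 replicate 1 0.15 (adjusted p = 0.26) and without day 20 replicate 2 0.25 (adjusted p = 0.066). It was also lost with DESeq2's size factors (adjusted p = 0.06), with DESeq2 (0.076) and with a stricter filter (0.074). CSF2RA and IL3RA lie in the pseudoautosomal region, which the annotation carries on both sex chromosomes, and how the counting treated that copy is not given. The 13 pseudoautosomal genes in the table all had counts, and their sum ranged from 977 to 1071 CPM over the libraries. The 8 mast cell and basophil markers summed to 206 to 211 CPM at day 10, 416 to 448 at day 15, 458 to 471 at day 20 and 586 to 615 at day 25. GATA2 was most of this sum at day 10 (169 CPM) and day 15 (293 CPM). All 7 tested markers of the list were higher at day 25 than at day 10, beside 38.6% of all genes higher and 36.0% lower. At day 10 CPA3, TPSAB1, TPSB2 and MS4A2 had 8, 18, 2 and 2 counts over the 3 libraries. They passed the filter on low counts through later days. The median log2 fold change of 6.36 is therefore uncertain in size. The 8 plasmacytoid dendritic cell markers summed to 124 to 127, 435 to 457, 339 to 350.4 and 543 to 565 CPM on days 10, 15, 20 and 25. TCL1A was at 0 throughout, and CLEC4C and JCHAIN were at 0 on day 10. NRP1, which other cell types also express, had 463 CPM of this sum at day 25 against 227 CPM at day 20. Of the 6 tested markers of that list, 2 were higher and 2 lower at day 25 than at day 20. Over all genes 24.5% were higher and 25.1% lower. The median log2 fold change of the list was -0.30. The part of either list was not tested.

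IL5RA (ENSG00000091181; chr3:3066326-3126613, minus strand), the IL-5-binding chain of eosinophils and basophils, showed the largest change in a single step among the 8 genes. At day 10 its libraries held 4, 16 and 10 counts, or 0.127, 0.402 and 0.338 CPM. Later it had 70.9, 74.7 and 71.5 on day 15, 46.4, 42.0 and 46.8 on day 20, and 19.0, 17.0 and 14.6 on day 25, all in CPM. Day 15 stood highest, with no overlap between any days. It was 240-fold higher at day 15 than at day 10 (fitted log2 7.91, SE 0.40, edgeR adjusted p = 3e-37), and this fold ranged from 190.2 without day 10 replicate 1 to 309 without day 10 replicate 2. It was then 1.61-fold lower at day 20 than at day 15 (log2 -0.68, SE 0.06, adjusted p = 1.2e-10) and 2.67-fold lower at day 25 than at day 20 (log2 -1.42, SE 0.12, adjusted p = 8.4e-19). With library-size scaling the log2 difference between days 20 and 15 was -0.06 (adjusted p = 0.47). Relative to the median of all genes it was -0.79 under either scaling, an equality that follows from arithmetic and does not bear on the call. The log2 ratio of IL5RA to IL3RA per kb averaged -6.88 ± 0.81 at day 10, -0.07 ± 0.20 at day 15, -0.99 ± 0.20 at day 20 and -1.52 ± 0.06 at day 25 (exact permutation p = 6.5e-05, the smallest possible). The 8 eosinophil markers summed to 111 to 122 CPM at day 10, 9499 to 10052 at day 15, 6014 to 6239 at day 20 and 920.4 to 947 at day 25, none at 0, and their part in the IL5RA course was not tested. CNTN4-AS1 overlaps IL5RA by 2917 bases on the same strand and held 69 counts in all.

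**Figure D3:**
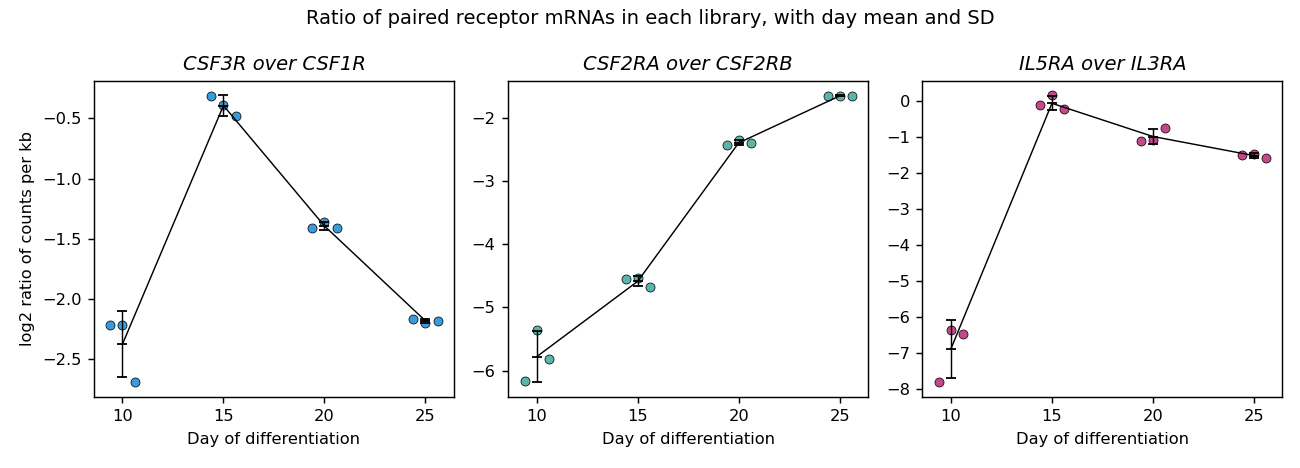
Log2 ratio of 3 pairs of receptor mRNAs (counts plus 1, per kb of merged exons) in each library against day. Points are libraries and lines join day means with SD bars. CSF2RA over CSF2RB stands at -5.78, -4.58, -2.39 and -1.65 on days 10, 15, 20 and 25, whereas the other ratios are highest at day 15, at -0.39 for CSF3R over CSF1R and -0.07 for IL5RA over IL3RA.

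EPOR (ENSG00000187266; chr19:11377205-11384342, minus strand) was highest at day 15 and lowest at day 25. Its libraries had 71.9, 67.5 and 67.7 on day 10, 127, 143 and 138 on day 15, 14.5, 16.3 and 16.8 on day 20, and 13.3, 13.4 and 13.9 on day 25, all in CPM. Days 10 and 15 lay well above days 20 and 25, and no days overlapped. EPOR was 1.97-fold higher at day 15 than at day 10 (log2 0.98, SE 0.06, edgeR adjusted p = 6.5e-20) and 8.59-fold lower at day 20 than at day 15 (log2 -3.10, SE 0.08, adjusted p = 2.3e-36). Over the whole course it was 5.09-fold lower at day 25 than at day 10 (log2 -2.35, SE 0.04, adjusted p = 1.8e-31). The last step, a log2 change of -0.23 between days 25 and 20 (SE 0.07, adjusted p = 0.0082), was lost without day 20 replicate 3 (-0.18, adjusted p = 0.065) and with limma-voom (-0.22, adjusted p = 0.051). The 12 erythroid markers summed to 527 to 564 CPM at day 10, 743 to 764 at day 15, 19.7 to 23.2 at day 20 and 1.54 to 2.53 at day 25, with HBE1 and AHSP among those at 0 on day 25. At day 15 against day 10, 4 of the 11 markers tested were higher and 6 lower, beside 42.4% of all genes higher and 30.8% lower. At day 25 against day 10 all 11 were lower, beside 38.6% of all genes higher and 36.0% lower. EPOR at day 25 (13.6 CPM) exceeded the whole erythroid marker sum of that day, and the part of these markers in its course was not tested. The 8 megakaryocyte markers, of a lineage close to the erythroid one, summed to 4773 to 5105 CPM at day 10, 22775 to 23683 at day 15, 388 to 398 at day 20 and 81.1 to 88.3 at day 25, and their part was likewise not tested. EPOR and its neighbour RGL3 share 2 bases.

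**Figure D4:**
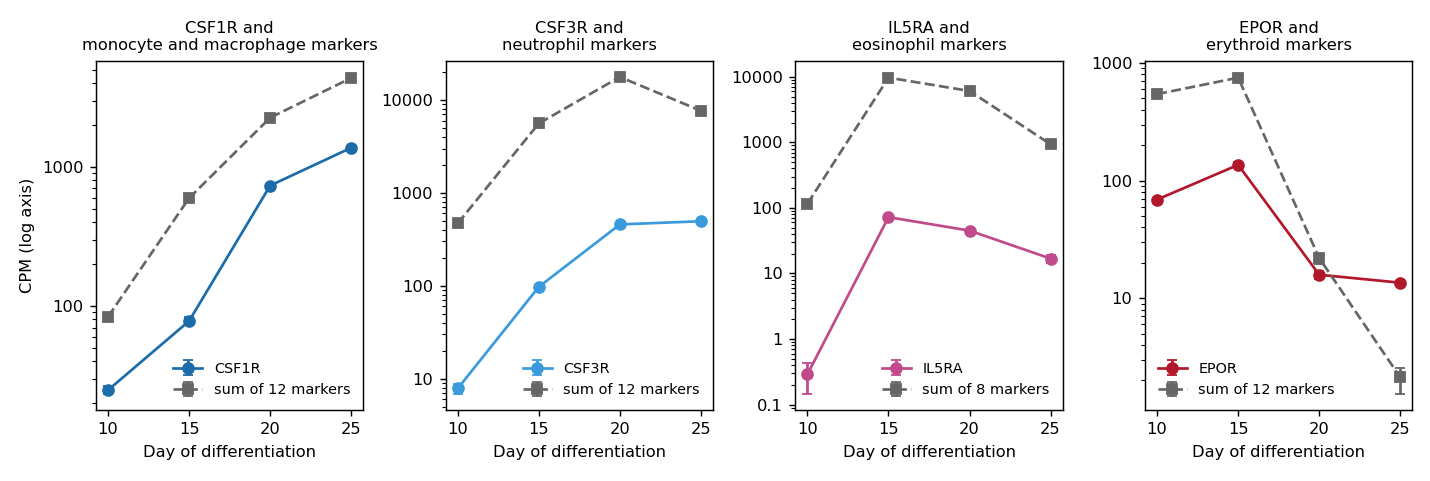
Mean level in CPM of 4 receptor mRNAs (circles, solid lines, SD bars) and the summed CPM of a marker list for a blood cell type that uses the receptor (squares, dashed lines, bars from lowest to highest library), against day, on log axes that differ between panels. The erythroid marker sum is at most 2.53 CPM at day 25, where EPOR is at 13.6 CPM. The neutrophil sum is lower at day 25 than at day 20, although 7 of its 12 markers were higher.

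Per kb of merged exons, the make-up of the receptor mRNAs shifted from EPOR to CSF1R. EPOR held 45.2% of the summed level per kb at day 10, CSF2RB held 48.5% at day 15, and CSF1R held 39.8% at day 20 and 59.8% at day 25. The sum itself was 49.6 CPM per kb at day 10, 201 at day 15, 358 at day 20 and 446 at day 25. At day 25 the order per kb was CSF1R (267 CPM per kb), CSF3R (58.6), CSF2RB (48.0), IL6R (42.7), CSF2RA (15.3), IL3RA (7.30), EPOR (4.40) and IL5RA (2.55). At day 10 EPOR led with 22.4 CPM per kb, followed by CSF2RB with 14.8, and IL5RA was last with 0.0437. Before division by length CSF2RB led at day 10, with 73.9 CPM against 69.0 CPM for EPOR.

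**Figure D5:**
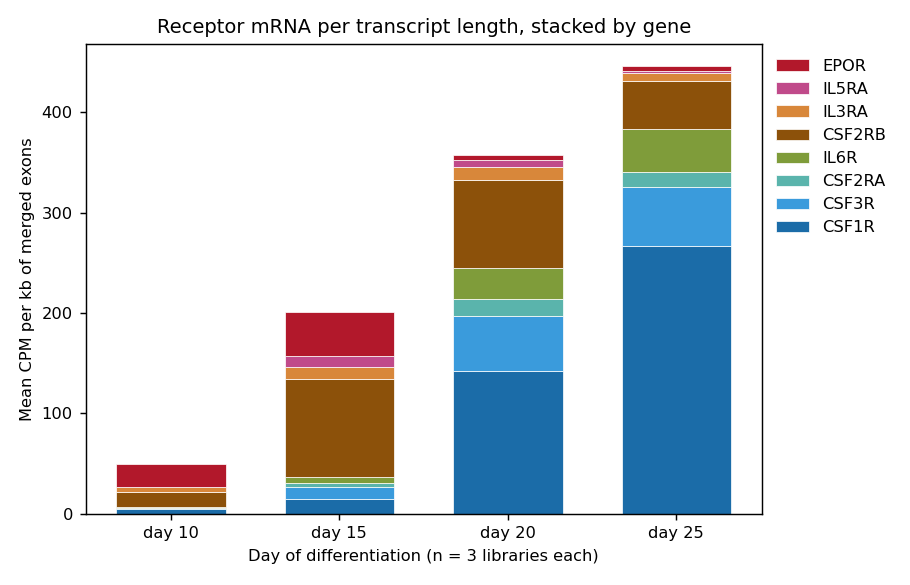
Mean level of the 8 receptor mRNAs in CPM per kb of merged exons, stacked by gene for each day (n = 3 libraries a day; the stack shows means without error bars). The total is 446 at day 25, where CSF1R takes 59.8% of it, against 49.6 at day 10.

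Ligand mRNAs were scarce apart from CSF1. Of the 8 ligands, 4 were tested (CSF1, IL34, CSF2 and IL6), and CSF2, CSF3, IL3, IL5 and EPO never exceeded a day mean of 0.474 CPM. Between days 25 and 10, CSF1 was higher (16.4-fold, edgeR adjusted p = 5.2e-44) and 1 ligand, CSF2, was lower, with 0.0374 CPM at day 25 against 0.474 CPM at day 10. CSF3 had 0 counts at day 25.

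Of 17 related receptors, 11 were higher and 5 lower at day 25 than at day 10, beside 38.6% of all genes higher and 36.0% lower, with a median log2 fold change of 0.91 against 0.02 over all genes. IL7R, the α chain for IL-7, had 61.2 ± 2.97 CPM at day 25 against 0.450 ± 0.284 CPM at day 10 (128-fold, SE of log2 0.49, edgeR adjusted p = 1.4e-36). Its day 10 level rested on 48 counts over the 3 libraries. IL7R would not have passed the filter on low counts from those libraries alone, so the size of this rise is uncertain. IL4R, the IL-4 receptor α chain, had 187 ± 6.34 CPM at day 25 against 7.17 ± 0.655 CPM at day 10 (25.8-fold, adjusted p = 3.5e-41). TFR2, an iron-sensing receptor that binds EPOR in erythroid cells, was 23.7-fold lower at day 25 than at day 10 (adjusted p = 1.7e-28).

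Of 20 genes that act next to these receptors, 13 were higher and 7 lower at day 25 than at day 10, beside 38.6% of all genes higher and 36.0% lower, with a median log2 fold change of 0.48 against 0.02 over all genes. PIK3CD, a leukocyte PI3-kinase subunit, was 19.8-fold higher (adjusted p = 2.3e-44), and GAB2, a docking protein, 4.67-fold (adjusted p = 1.8e-29). TYROBP, an adaptor that works with CSF1R in macrophages, had 589 ± 8.37 CPM at day 25 against 59.7 ± 2.22 CPM at day 10 (adjusted p = 5.2e-45). JAK2, the kinase bound to EPOR and CSF2RB, averaged 72.0 CPM at day 10, 540.2 at day 15, 50.0 at day 20 and 49.1 at day 25, so it was highest at day 15.

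Of 18 genes that these receptors are known to induce, 13 were higher and 4 lower at day 25 than at day 10, beside 38.6% of all genes higher and 36.0% lower, with a median log2 fold change of 1.31 against 0.02 over all genes. The 4 lower ones were SOCS2, BCL2L1, MYC and ERFE. BCL2L1, a survival gene induced by EPOR signalling, had 48.6 CPM at day 25 against 122 CPM at day 10, and MYC had 24.2 CPM at day 25 against 77.9 CPM at day 10. SOCS3, a feedback inhibitor of IL-6 and G-CSF signalling, was 35.9-fold higher at day 25 than at day 10 (140.8 ± 8.20 CPM against 3.98 ± 0.624 CPM, adjusted p = 2.5e-42). EGR2, an immediate early factor of macrophage differentiation, had 151 ± 4.02 CPM at day 25 against 1.06 ± 0.232 CPM at day 10 (adjusted p = 7.9e-41). BCL2A1, a survival gene induced by GM-CSF, had 75.1 ± 1.16 CPM at day 25 and 0 counts at day 10, at least 2527-fold higher against a floor of 3 counts over the 3 day 10 libraries (adjusted p = 5.6e-38). OSM, a target of STAT5, averaged 9.47 CPM at day 25 against 0.113 CPM at day 10 (adjusted p = 1e-17). Its day 10 level rested on 10 counts over the 3 libraries, with an SD of 0.195 CPM, above the mean. Neither OSM nor BCL2A1 would have passed the filter on low counts from the day 10 libraries alone, so the size of these rises is uncertain.

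Of 8 genes of receptor shedding, 7 proteases and RHBDF2, a partner of the sheddase ADAM17, 7 were higher and 1 lower at day 25 than at day 10, beside 38.6% of all genes higher and 36.0% lower. Their median log2 fold change was 4.02, against 0.02 over all genes. ELANE and CTSG are serine proteases of neutrophil granules. ELANE had 462 ± 10.8 CPM at day 25 against 0.636 ± 0.0941 CPM at day 10 (713-fold, adjusted p = 3.6e-52), and CTSG had 212 ± 8.10 CPM against 0.600 ± 0.134 CPM (342-fold, adjusted p = 1.3e-47). The gelatinase MMP9 was 60.6-fold and the membrane protease ADAM9 17.3-fold higher (adjusted p = 3.6e-52 and 1.4e-45). ELANE and CTSG are also among the 12 neutrophil markers.

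The genes whose course was most like that of each receptor were found by the root mean square difference of log2 CPM centred on the gene mean over the 12 libraries, among 12718 genes with at least 5 CPM on their highest day. These libraries fall into 4 days, so the measure describes likeness over 4 stages. For CSF1R they were CTSL (difference 0.0983), CD74 (0.217) and RAB42 (0.221), and for CSF3R they were CD163 (0.133), ITGAL (0.204) and GAS7 (0.229). For CSF2RA they were MRC1 (0.186), CLEC5A (0.194) and LYZ (0.234), and for IL6R they were SLC7A7 (0.110), LITAF (0.115) and RAB11FIP4 (0.149). CD163 and MRC1, macrophage scavenger and mannose receptors, are on the monocyte and macrophage list. CSF2RB was nearest to TENT5A (0.171), CST7 (0.197) and MAP3K8 (0.229), and IL3RA to CRELD2 (0.107), MLC1 (0.133) and HELB (0.195). IL5RA was nearest to CLC (0.522) and RNASE2 (0.531), both on the eosinophil list, and GADD45B (0.667). EPOR was nearest to GADD45A (0.0849), TTC7B (0.122) and FAM20B (0.124), none of them on the erythroid list. Among the 8 receptors the closest pair was CSF2RA and CSF3R, with a difference of 0.262.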

How the data were processed

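The authors deposited raw read counts per gene for 12 libraries, made by ligation-mediated sequencing (LM-Seq) as single reads, per the labels. The submitters' processing notes name GRCh38. Aligner, counter and annotation: not given in the sources used here. In every library more genes had 2 counts (1405 to 1602) than 1 (792 to 1006), so counts may not each stand for a separate fragment. Of 36601 IDs, 25321 had a symbol. Gene models and merged exon lengths are from GENCODE release 29 on GRCh38.

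Counts were fitted in R 4.3.3 with edgeR 4.0.16 (filterByExpr with a minimum count of 10, TMM, glmQLFit robust, all 12 libraries, no covariates), which kept 20183 genes, and every adjusted p is Benjamini-Hochberg over these, called under 0.05. Ratios used an exact permutation test, enumerated in Python 3.11.15 with numpy 2.4.6. The edgeR fit was tested on simulated data. Alternatives used DESeq2 1.42.0, limma 3.58.1 (voom), other scalings and filters, a replicate block, the compared days alone and leaving out each library. The receptors and gene lists were chosen with earlier results of these data known. All receptors and ligands are named, and up to 4 genes per pathway list with the largest change between days 25 and 10 among those called with at least 5 CPM, plus the 3 nearest courses per receptor. JAK2, IL6ST, the genes named as lower among the receptor-induced ones, RHBDF2 and single genes of the marker lists were named after their values were seen. A few genes taken by these rules are left out of the text.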

Additional observations from a re-analysis of the deposited data

How the results depend on the processing

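With 3 libraries a day, no separate cultures named and counts that may not be independent fragments, precision is limited to the spread between these libraries; IL5RA and CSF2RA at day 10 rest on few counts. The direction and call of the 8 receptors held under most settings. Of 1224 receptor results under alternatives, 1206 kept both, 12 lost the call, 3 gained it and 3 reversed. These include the joint test among days, which has a call and no direction. The reversals were CSF2RB between days 20 and 15, at 0.47 with library-size scaling and 0.081 with no filter, and CSF3R between days 25 and 20, at -0.050 with library-size scaling. CSF2RB with no filter (edgeR adjusted p = 0.056) and CSF3R (edgeR adjusted p = 0.23) also lost the call, and are counted only as reversed. Library-size scaling also moved the genes called lower between days 20 and 15 to 4530, against 7271 with TMM, and the receptors called lower to 1, against 3. It shifted the median log2 fold change of all genes between days 15 and 10 to -0.32, against 0.20 with TMM. The cause was not tested. All 3 ratios kept their adjusted exact p on the same side of the threshold with 0.5 counts added and without each library. Little else could come out, since each p was already the smallest the test can give. No effect shared by replicate number was visible across days: the correlations of deviations within 18 same-numbered pairs ran from -0.0164 to 0.0156. This cannot show whether same-numbered libraries came from one culture, since technical spread would look the same. With the replicate number as a block, 8 receptors were higher between days 15 and 10 and 3 higher and 4 lower between days 25 and 20, as without it, and no receptor call changed. Over all genes, the block gave 8439 higher and 6153 lower between days 15 and 10, against 8562 and 6214 without it.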
